A study of Homo sapiens with 6 samples.

Results

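The genes described here act in G2 phase and mitosis, and were measured in human neural stem cells that had received X5050, which the series title calls an inhibitor of the transcriptional repressor REST, or its solvent DMSO. They were taken from a fixed list of 40 symbols: cyclins, mitotic kinases, spindle checkpoint, kinetochore, spindle and cytokinesis genes. A member was a probe set (the group of array probes that reports 1 transcript cluster) annotated to a single listed symbol, and for a symbol with several the probe set with the highest mean over the 6 arrays was used. This gave 39 genes of 18417 gene symbols tested. CENPA, the histone variant of centromeres, has a probe set annotated to several symbols and was not analysed here. BIRC5 alone had a second probe set.

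The cells were neural stem cells of the line SA-01, derived from human embryonic stem cells and used at passage 14 in serum-free medium on polyornithine and laminin. The DMSO group had solvent at 0.1% and the X5050 group had X5050 at 100 µM, both from 5 h after plating and for 24 h. Each group held 3 arrays from 3 independent cultures, and same-numbered arrays are taken as coming from the same culture. All groups share 1 cell line, so it stands for 1 genetic background, and no second dose or time was used here.

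Dividing cells make most of these transcripts in a wave that starts in late S phase and ends after division. This wave depends on shared regulators: the MuvB complex with B-MYB and FOXM1 acts through a promoter element called the CHR and NF-Y acts through CCAAT boxes. The proteins then drive CDK1 activation, spindle assembly, chromosome attachment, anaphase and cytokinesis, and neural stem cells express them because they keep dividing in culture. In RNA from a whole culture, fewer cells in G2 or mitosis and less of a transcript per cell cannot be told apart.

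The promoters show what many members share apart from their names, so those of 3 members with low values after X5050 and of CDK1, which stood on the other side, are shown. Each sequence is the 120 bases that end just before an annotated start, on the plus strand of GRCh38.p14 as held by RefSeq, with capitals for a CHR core (TTTGAA or TTCGAA) or a CCAAT box, either strand counted, so that ATTGG is a CCAAT box on the other strand. PLK1, CDC20 and BUB1B are those of the 10 members with the smallest p that hold a core in this stretch, and CDK1 was added after its values were seen.
PLK1, chr16:23678769-23678888: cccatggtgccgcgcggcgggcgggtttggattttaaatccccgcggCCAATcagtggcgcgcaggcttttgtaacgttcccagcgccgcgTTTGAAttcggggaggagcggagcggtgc
CDC20, chr1:43358861-43358980: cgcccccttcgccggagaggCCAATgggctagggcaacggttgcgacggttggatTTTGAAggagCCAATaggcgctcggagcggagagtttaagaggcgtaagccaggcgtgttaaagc
BUB1B, chr15:40160949-40161068: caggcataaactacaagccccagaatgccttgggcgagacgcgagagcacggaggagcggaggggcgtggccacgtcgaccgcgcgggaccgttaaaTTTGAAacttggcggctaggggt
CDK1, chr10:60778358-60778477: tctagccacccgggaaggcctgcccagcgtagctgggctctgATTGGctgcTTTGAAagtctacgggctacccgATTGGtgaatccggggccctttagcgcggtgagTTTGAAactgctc

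The core of PLK1 begins 29 bases before the start and its CCAAT box 73 bases before it. CDC20 has its core at 65 bases, between CCAAT boxes at 100 and 55 bases. BUB1B has a core at 23 bases and no CCAAT box in this stretch. In the stretch shown, CDK1 holds cores at 69 and 13 bases and CCAAT boxes at 78 and 46 bases. That stretch ends before a later annotated start of CDK1 and lies after its first start, at 60778331. The window of the first start holds a core at -161 and a CCAAT box at -150, counted from that start. Both lie further from it than the printed length covers, so the choice of start decides what is seen for CDK1. Over the full window of 300 bases (250 before a start and 50 after it), 24 of the 33 members with a RefSeq window held a CHR core at any of their starts, which is 72.7%, against 19.5% of all 27305 genes in the table. A CCAAT box was found for 26 of the 33 (78.8%, against 39.7%), and 20 held both (60.6%, against 7.85%). Counted window by window there were 40 cores, with a site shared by windows of the same gene counted in each, and 1 overlapped a CCAAT box. Of the 17 members with a window that were lower in every culture 9 held a core, and of the other 16 members 15 did, a difference that was not tested. BIRC5, AURKA, TPX2, UBE2C, FOXM1 and TTK had no window. A match in these letters is not a measured binding site.

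Most of the 39 genes stood lower after X5050 by small amounts, and a few, CDK1 first among them, did not. The median log2 change (X5050 minus DMSO, on the deposited log2 signal) was -0.17, against 0.0092 over all 19460 probe sets tested, and single genes ran from -0.63 for PLK1 to 0.22 for CDK1. The change was below 0 for 30 of the 39, beside 47.3% of all probe sets. None passed the threshold: limma called 0 members and 0 probe sets in all (0% of those tested) at an adjusted p under 0.05. At an unadjusted p under 0.05, 8 members were lower and 0 higher. Of all probe sets 4.88% were lower at that level, and 875 of the 19460 were higher. With the replicate number as a block, so that each X5050 array is set against the DMSO array of its culture, limma called 97 probe sets (0.498%) and still 0 members. At an unadjusted p under 0.05 that paired fit had 13 members lower, beside 7.48% of all probe sets. It had 1 member higher, CDK1, beside 1374 of the 19460 probe sets.

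By culture, 21 of the 39 genes were lower in each of the 3 cultures, beside 17.5% of all probe sets, and CDK1 alone was higher in each, beside 18.0% of all probe sets. Another 9 were lower in 2 cultures and 8 in 1. The median change of the 39 was -0.13 in culture 1, -0.28 in culture 2 and -0.049 in culture 3, and 34, 33 and 22 of them were below 0. Culture 3 thus held the most members above 0. The 3 X5050 values lay entirely below the 3 DMSO values for 9 members (PLK1, BIRC5, CDC20, KIF20A, AURKB, BUB1B, NEK2, KIF2C and PRC1), beside 7.41% of all probe sets. They lay entirely above for 0, beside 7.51%.

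**Figure D1:**
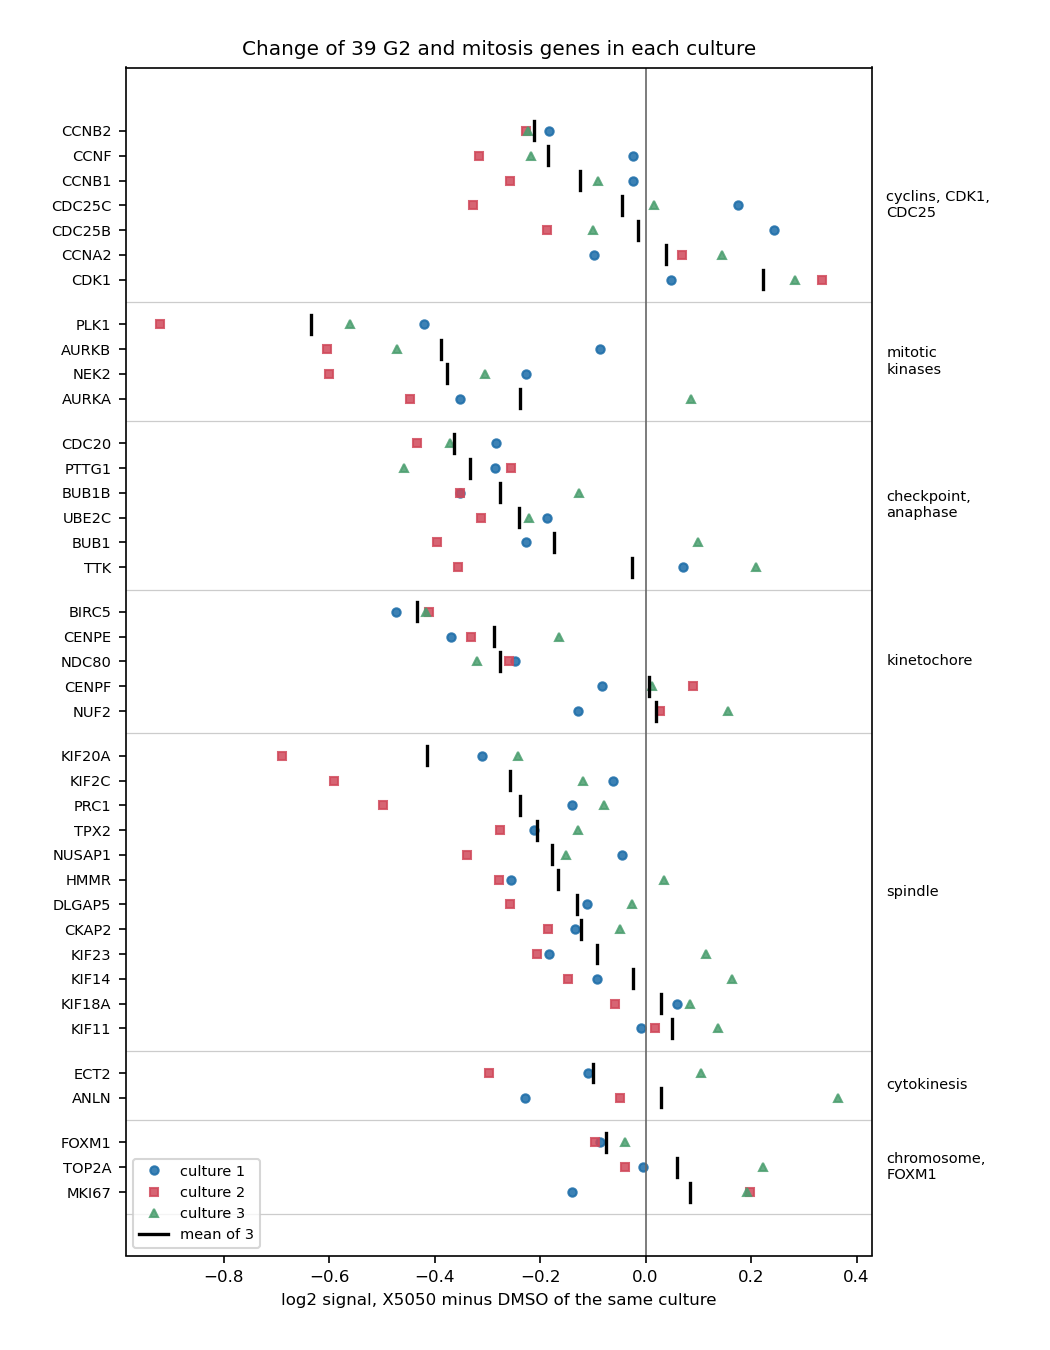
Change of each of the 39 genes (vertical axis, grouped by role) in log2 units, X5050 array less the DMSO array of its culture (horizontal axis), with 1 symbol per culture and a bar for the mean of 3. PLK1 has the lowest mean, -0.63, CDK1 has all 3 points right of 0, and culture 3 (triangles) lies furthest right for many spindle genes.

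How much of this rests on 1 array was checked first, because the DMSO array of culture 2 stood apart for these genes. It held the highest of the 3 DMSO signals for 37 of the 39 members (94.9%), while it was the highest for 29.8% of all probe sets. Its median deviation from a gene's mean over the 6 arrays was 0.28, and those of the other DMSO arrays were -0.0034 and -0.061. The X5050 arrays had medians of -0.16, 0.036 and -0.11 in cultures 1, 2 and 3. Without that DMSO array the median change of the members was -0.040, with 21 of 39 below 0 and 5 at an unadjusted p under 0.05 in limma. That last count was also 5 without X5050 replicate 1 and was 14 without DMSO replicate 1. These 3 counts take both directions, and the share of all probe sets in these fits is not given here. Without DMSO replicate 2 the X5050 values lay below both remaining DMSO values for 9 members, beside 12.1% of all probe sets. They lay above both for 2, TTK and KIF18A, beside 12.8%. The count of 9 could not change, because this array was the lowest DMSO array for 0 of the 39 members. It was the lowest for 33.6% of all probe sets. Leaving it out turned the sign or changed the size by over 1.5 times for 30 of the 39 members. Over all 6 arrays left out in turn, 8 members kept within 1.5 times of their value: PLK1, BIRC5, CDC20, KIF20A, AURKB, BUB1B, PTTG1 and AURKA. Leaving out culture 2 altogether, 21 members were lower in both cultures 1 and 3, beside 27.9% of all probe sets, and the paired median was -0.090. That count could not fall below the number lower in every culture. Neither it nor the count of 9 can show how far the result rests on culture 2.

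**Figure D2:**
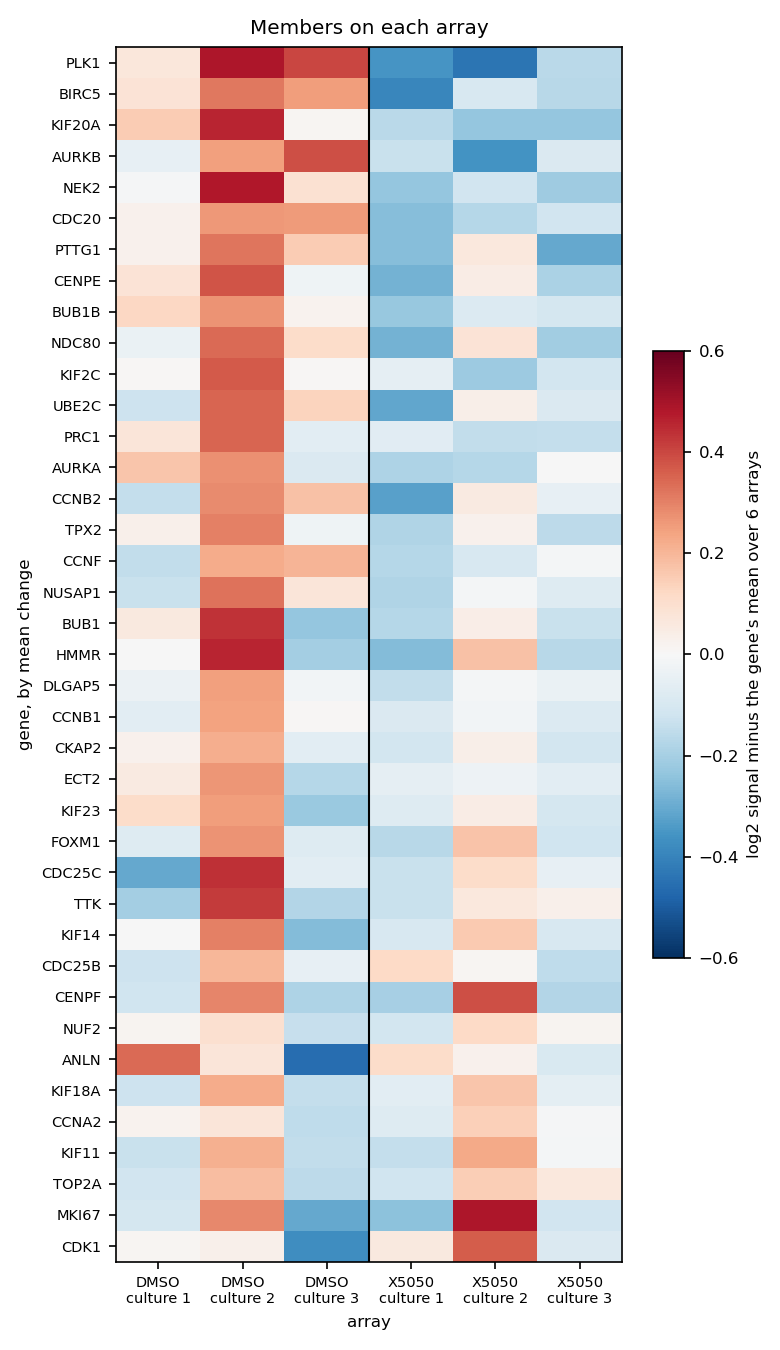
Log2 signal of the 39 genes (rows, by mean change, lowest on top) on each of the 6 arrays (columns) after subtracting the gene's mean over the arrays, from -0.6 (blue) to 0.6 (red). The column of DMSO culture 2 is red in every row (39 of 39 genes above their mean), and the columns of X5050 cultures 1 and 3 are above the mean for 3 genes each.

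The 4 genes grouped as mitotic kinases had the lowest median of any role (-0.38, all 4 below 0, and -0.30 without DMSO replicate 2). The kinases CDK1, BUB1 and TTK were grouped under other roles and stood at 0.22, -0.17 and -0.026. PLK1, the polo-like kinase that drives mitotic entry, centrosome maturation and cytokinesis, had log2 signals of 8.86, 9.28 and 9.19 with DMSO and 8.44, 8.36 and 8.63 with X5050 in cultures 1, 2 and 3. The groups did not overlap, and the gene was lower in every culture. Its change was -0.63 (SE 0.13, n = 3 per group, 95% interval -0.94 to -0.33), a 1.55-fold lower signal, with an adjusted p of 0.317 in limma and 0.0603 in the paired limma fit. The paired limma fit called it without culture 1 (log2 change -0.74, SE 0.13, adjusted p = 0.0167), where 1.78% of all probe sets were called. It did not without culture 2 (-0.49) or culture 3 (-0.67), where 0.416% and 0% of all probe sets were called.

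AURKB, the kinase of the chromosomal passenger complex that corrects faulty attachments, had 8.13, 8.42 and 8.56 with DMSO and 8.04, 7.81 and 8.09 with X5050. The groups were separate, but the difference in culture 1 was only -0.087, against -0.60 and -0.47 in cultures 2 and 3. The mean change was -0.39 (SE 0.13, adjusted p = 0.455 in limma, 0.171 paired), and the paired limma fit called it only when culture 1, where it differed least, was left out (-0.54, SE 0.12, adjusted p = 0.0437). Without culture 2 it stood at -0.28 and without culture 3 at -0.35. NEK2, a kinase that parts the centrosomes, had 7.86, 8.35 and 7.95 with DMSO and 7.63, 7.75 and 7.65 with X5050, a change of -0.38 (SE 0.13), and -0.23 without DMSO replicate 2. Its X5050 arrays were close together and all lay below the DMSO arrays. AURKA, which acts at centrosomes and spindle poles, was lower in cultures 1 and 2 (-0.35 and -0.45) and stood at 0.086 in culture 3.

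All 6 genes of the checkpoint and of anaphase onset were below 0 (median -0.26), and 4 of them were without DMSO replicate 2 (median -0.17). CDC20, the activator of the anaphase-promoting complex, had 7.50, 7.74 and 7.73 with DMSO and 7.22, 7.31 and 7.36 with X5050. The 3 cultures were alike, at -0.28, -0.43 and -0.37, and the groups were separate. Its change was -0.36 (SE 0.098, adjusted p = 0.358 in limma, 0.117 paired). BUB1B, the checkpoint protein BubR1, had 9.67, 9.81 and 9.56 with DMSO and 9.31, 9.46 and 9.43 with X5050, which do not overlap, for a change of -0.28 (SE 0.096). PTTG1, the securin that restrains the cohesin-cutting protease until anaphase, had 10.42, 10.71 and 10.54 with DMSO and 10.14, 10.46 and 10.09 with X5050. The X5050 value of culture 2 lay above the DMSO value of culture 1, so these groups overlapped although X5050 was lower in each culture (-0.28, -0.26 and -0.46). PTTG1 has close copies in the genome that its probes may also read. UBE2C, the ubiquitin-conjugating enzyme of the same complex, was lower in every culture (mean change -0.24, SE 0.14), and leaving out 1 array gave -0.36 (DMSO replicate 1) to -0.13 (DMSO replicate 2). The checkpoint kinase BUB1 (-0.17, SE 0.16) was higher in culture 3, and TTK, the kinase MPS1 (-0.026, SE 0.17), was lower in culture 2 alone.

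**Figure D3:**
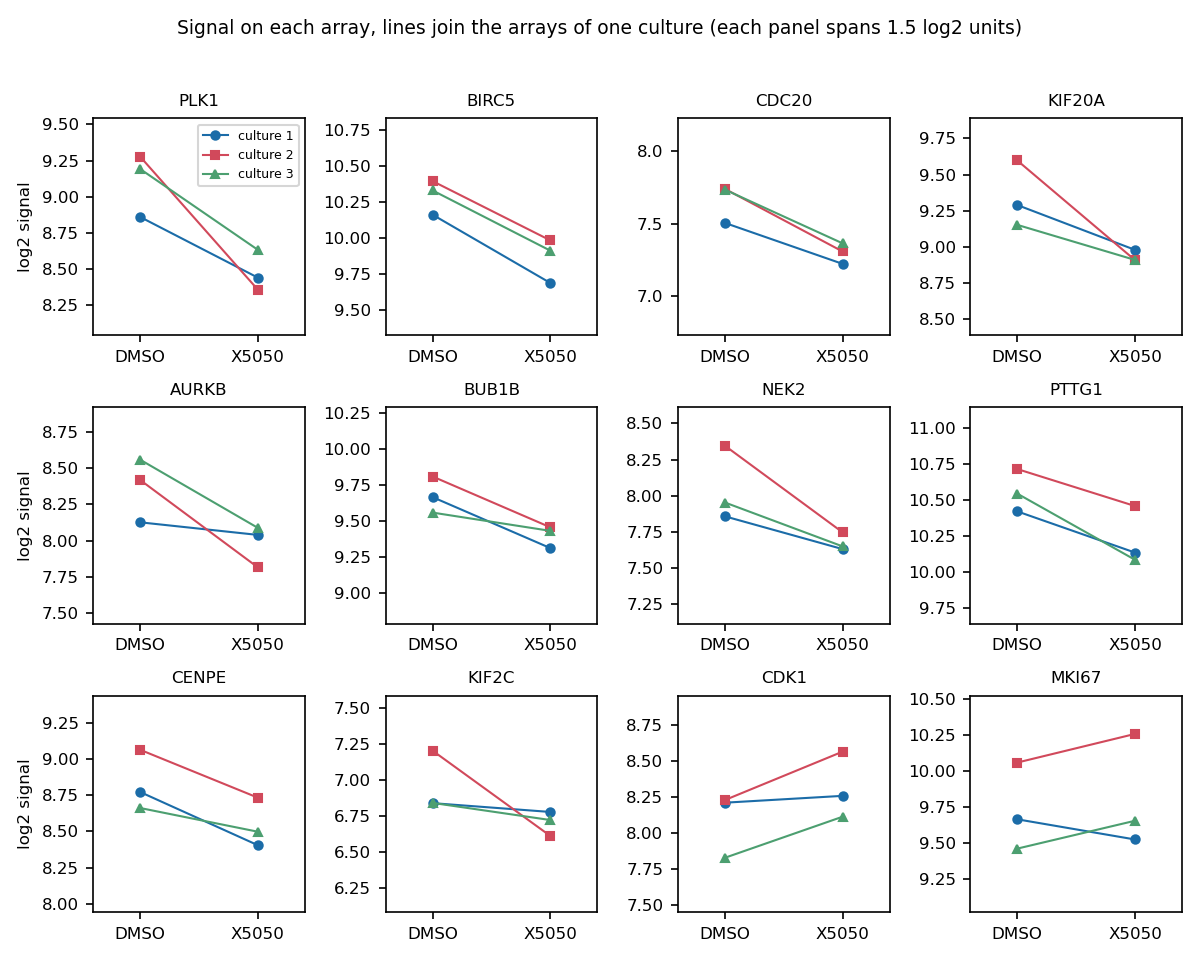
Log2 signal on each array (vertical axis, 1.5 log2 units in each panel) for the 10 members with the smallest p and for CDK1 and MKI67, with a line joining the DMSO and X5050 arrays of a culture. The lines of PLK1, BIRC5 and CDC20 descend in all 3 cultures, those of CDK1 ascend, and those of MKI67 lie furthest apart between cultures.

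The 5 measured kinetochore and passenger genes split, with 3 below 0 (median -0.28, and -0.17 without DMSO replicate 2). BIRC5, the survivin subunit that brings AURKB to centromeres, had 10.16, 10.39 and 10.33 with DMSO and 9.69, 9.98 and 9.91 with X5050. The groups were separate and the 3 cultures were close, at -0.47, -0.41 and -0.42. The change was -0.43 (SE 0.11, 1.35-fold, adjusted p = 0.342 in limma, 0.0770 paired). Its second probe set gave -0.38 (SE 0.10), again with separate groups. CENPE, the motor that carries chromosomes to the spindle equator, had 8.77, 9.07 and 8.66 with DMSO and 8.40, 8.73 and 8.50 with X5050, overlapping groups with a change of -0.29 (SE 0.13), and -0.17 without DMSO replicate 2. NDC80, the microtubule-binding arm of the kinetochore, was lower in every culture (-0.25, -0.26 and -0.32, with a mean of -0.28 and of -0.17 without DMSO replicate 2), while its partner in the same complex, NUF2, was not. NUF2 had 9.60, 9.68 and 9.44 with DMSO and 9.47, 9.70 and 9.60 with X5050, a change of 0.019 (SE 0.10) that was -0.00017 with arrays centred on their medians. CENPF, a large protein of the outer kinetochore, had 10.53, 10.94 and 10.46 with DMSO and 10.45, 11.03 and 10.47 with X5050. Here the cultures stood apart and the treatments did not (change 0.0066, 95% interval -0.44 to 0.45, and -0.012 with centred arrays).

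Among the 12 spindle motors and spindle proteins 10 were below 0 (median -0.15) and 7 were lower in every culture. Without DMSO replicate 2 their median was -0.042, with 7 of 12 below 0. KIF20A, a kinesin of the central spindle needed for cytokinesis, had 9.29, 9.60 and 9.15 with DMSO and 8.98, 8.91 and 8.91 with X5050. The 3 X5050 arrays were nearly level and below every DMSO array, with a change of -0.41 (SE 0.12, adjusted p = 0.384 in limma, 0.138 paired). It was largest in culture 2 (-0.69, against -0.31 and -0.24). KIF2C, the kinesin that takes microtubules apart at centromeres, had 6.84, 7.20 and 6.84 with DMSO and 6.78, 6.61 and 6.72 with X5050. Its mean change was -0.26 (SE 0.12), most of it from culture 2 (-0.59), and it was -0.14 without DMSO replicate 2. PRC1, which bundles the central spindle, followed the same pattern at -0.14, -0.50 and -0.079, with a mean of -0.24 and -0.12 without DMSO replicate 2.

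TPX2, the spindle activator of AURKA, stood at -0.20 (SE 0.11), the bundling protein NUSAP1 at -0.18 (SE 0.13), DLGAP5 at -0.13 and CKAP2 at -0.12, and each was lower in every culture. Without DMSO replicate 2 they stood at -0.11, -0.059, -0.040 and -0.043. HMMR (-0.17, SE 0.19), KIF23 (-0.091, SE 0.13) and KIF14 (-0.025, SE 0.15) were lower in cultures 1 and 2 and higher in culture 3. KIF11, the motor that pushes spindle poles apart, had 9.49, 9.83 and 9.47 with DMSO and 9.48, 9.85 and 9.61 with X5050 (change 0.049, SE 0.14). KIF18A, which damps chromosome oscillation, had 9.07, 9.41 and 9.05 with DMSO and 9.12, 9.36 and 9.13 with X5050 (0.029, SE 0.13). In both genes each X5050 array lay within 0.14 of the DMSO array of its culture, and the groups overlapped throughout.

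The B-type cyclins stood lower after X5050 and CDK1, the kinase they activate, stood higher, and none passed the test. The median of the 7 genes of this role was -0.045, and 0.082 without DMSO replicate 2. CDK1, the kinase that starts mitosis, had 8.21, 8.23 and 7.83 with DMSO and 8.26, 8.56 and 8.11 with X5050. It was higher in every culture (0.047, 0.33 and 0.28), but the X5050 value of culture 3 lay below 2 of the DMSO values, so the groups overlapped. Its change was 0.22 (SE 0.15, 95% interval -0.13 to 0.58, adjusted p = 0.750 in limma, 0.340 paired), and leaving out 1 array gave 0.092 to 0.32. CCNB1, its main mitotic cyclin, had 10.40, 10.70 and 10.47 with DMSO and 10.37, 10.44 and 10.38 with X5050. That is -0.12 (SE 0.10, 95% interval -0.36 to 0.11), with the groups overlapping, and -0.035 without DMSO replicate 2. CCNB2 was lower by a like amount in each culture (-0.18, -0.23 and -0.22), and CCNF, the cyclin-like F-box protein, by unlike amounts (-0.024, -0.32 and -0.22). Without DMSO replicate 2 the mean changes of CCNB2 and CCNF were both -0.12, against -0.21 and -0.19 with it. CCNA2, the cyclin of S and G2 phase, had 10.07, 10.12 and 9.90 with DMSO and 9.97, 10.19 and 10.05 with X5050 (0.039, SE 0.10). The phosphatases that switch CDK1 on, CDC25B (-0.014, SE 0.12) and CDC25C (-0.045, SE 0.18), were lower in culture 2 and higher in culture 1, and CDC25B stood at 4.3e-05 after another quantile normalization.

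The genes most used as proliferation markers showed no common direction. MKI67, the Ki-67 protein that coats mitotic chromosomes, had 9.67, 10.06 and 9.46 with DMSO and 9.53, 10.26 and 9.66 with X5050. Its change was 0.084 with an interval of -0.43 to 0.59 (SE 0.22), the widest of the 39, because the arrays of culture 2 stood above all others in both treatments. TOP2A, the topoisomerase that untangles chromosomes, had 10.94, 11.24 and 10.90 with DMSO and 10.94, 11.21 and 11.12 with X5050 (0.060, SE 0.12). FOXM1, the transcription factor of this gene wave, had 8.54, 8.88 and 8.54 with DMSO and 8.45, 8.79 and 8.50 with X5050, a change of -0.074 (SE 0.14), with -0.087, -0.096 and -0.040 in the 3 cultures and 0.041 without DMSO replicate 2. For cytokinesis, the actin-binding anillin ANLN had 9.57, 9.30 and 8.77 with DMSO and 9.34, 9.25 and 9.14 with X5050, so the differences by culture were -0.23, -0.049 and 0.36. ECT2, which activates RhoA at the cleavage site, stood at -0.10 (SE 0.12).

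Differences between cultures were set beside those between treatments. The range of the culture means (each over its DMSO and X5050 array) had a median of 0.29 over the 39 genes, against a median size of 0.17 for the treatment change. For all probe sets these values were 0.18 and 0.093, so both are larger for the members. The range over 3 means exceeded the difference of the treatment means in 71.8% of members, close to the 74.9% of all probe sets. Culture 2 had the highest mean for 34 of the 39, beside 30.1% of all probe sets. A limma F test between cultures, with treatment in the model, called 570 probe sets (2.93%) and 0 members, while 16 members had an unadjusted p under 0.05, beside 15.6% of all probe sets. Without DMSO replicate 3 or X5050 replicate 3 that test called 160 and 316 probe sets, and without X5050 replicate 1 it called 997, with 2 members among them. CENPF and MKI67 came nearest (adjusted p = 0.0595 and 0.0598 in that limma F test), with culture means of 10.49, 10.99 and 10.47 for CENPF and 9.60, 10.16 and 9.56 for MKI67. HMMR, the hyaluronan-mediated motility receptor that acts on spindles, followed (8.88, 9.33 and 8.82, adjusted p = 0.110 in limma). PLK1 and CDC20 differed less between cultures (ranges 0.26 and 0.19) and were highest in culture 3.

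Other genes of the same pathway, from a fixed list of 64 with 63 measured, lay on the same side. Of these 51 were below 0 (81.0%, beside 47.3% of all probe sets, median -0.14). In every culture 31 were lower (49.2%, beside 17.5%), and limma called 0 in either direction. At an unadjusted p under 0.05 in limma 10 were lower (15.9%, beside 4.88%) and 0 higher, beside 875 of the 19460 probe sets. In the paired limma fit 1 fell: CENPW, a small histone-fold protein of the inner kinetochore (log2 change -0.69, paired SE 0.088, adjusted p = 0.0322), with 8.21, 8.13 and 7.80 with DMSO and 7.57, 7.47 and 7.04 with X5050. CDCA8, the borealin subunit that joins BIRC5 and AURKB in the passenger complex, had the smallest p of the list without the block (-0.55, SE 0.13, adjusted p = 0.341 in limma, 0.0588 paired) and was lower by 0.42, 0.50 and 0.72 in the 3 cultures. KIF15, a motor that backs up KIF11, had the smallest p on the higher side (0.18, SE 0.15). Without DMSO replicate 2 the list median was -0.065, with 42 of 63 below 0.

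The anaphase-promoting complex, which ubiquitinates cyclin B and securin, had 10 of 17 subunits and regulators below 0 (median -0.044, and -0.030 without DMSO replicate 2). ANAPC15, a small subunit linked to checkpoint release, fell in the paired limma fit (log2 change -0.80, 1.74-fold, paired SE 0.10, adjusted p = 0.0322, and 0.234 without the block). Its signals were 8.70, 8.81 and 9.07 with DMSO and 8.11, 7.85 and 8.20 with X5050, with no overlap. The scaffold subunit ANAPC5 had the smallest p on the other side (0.42, SE 0.090, adjusted p = 0.323 in limma, 0.108 paired). CENPW and ANAPC15 were the only genes of the 7 related lists called in the paired limma fit, and without culture 3 that fit called 0 probe sets in all, neither of them included. Condensin and cohesin genes had a median of -0.044 (10 of 16 below 0), which was 0.0046 (8 of 16) without DMSO replicate 2 and -0.0062 (8 of 16) after another quantile normalization, with STAG1 at -0.39 (SE 0.14) and PDS5A at 0.20 (SE 0.086), both cohesin partners.

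With all 6 arrays, the G2 entry, transcription factor and G1 lists had medians nearer 0 than the members. Without DMSO replicate 2 this did not hold for the G1 list (-0.067, against -0.040 for the members). Of all probe sets 47.3% were below 0. The G2 entry and checkpoint list had a median of -0.037 (10 of 15 below 0), and of 0.0037 (7 of 15) without DMSO replicate 2, with the CDK1-inhibiting kinase WEE1 at -0.15 (SE 0.12), the checkpoint kinase CHEK1 at -0.089 (SE 0.082), the phosphatase inhibitor ENSA at -0.18 and the damage sensor kinase ATR at 0.23. CDKN1A, the p21 inhibitor of cyclin-dependent kinases, stood at -0.13 (SE 0.25). Transcription factors of cell cycle genes had a median of -0.032 (13 of 23 below 0), and of -0.011 (12 of 23) without that array, among them B-MYB, encoded by MYBL2, at -0.12 (SE 0.089), NFYC at -0.16 and E2F3 at 0.24. The G1 list had a median of -0.022 (10 of 15 below 0), and of -0.067 (10 of 15) without that array, with CDK2 at -0.30 (SE 0.084) and CDKN1C at 0.23 (SE 0.12). S phase and replication genes were lower about as often as the G2 and mitosis genes: 26 of 34 were below 0 (76.5%, against 76.9%), with a median of -0.10, and of -0.045 (22 of 34) without DMSO replicate 2. At an unadjusted p under 0.05 in limma 9 of the 34 were lower (26.5%, against 20.5% of members and 4.88% of all probe sets). For 10 the groups lay apart on the lower side (29.4%, against 23.1% of members and 7.41% of all probe sets). The smallest p in each direction belonged to CDC45, a helicase cofactor of replication forks, at -0.36 (SE 0.085), and PRIM1, a primase subunit, at 0.16 (SE 0.13). In these 4 lists limma called 0 genes in either fit, and no difference between lists was tested.

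**Figure D4:**
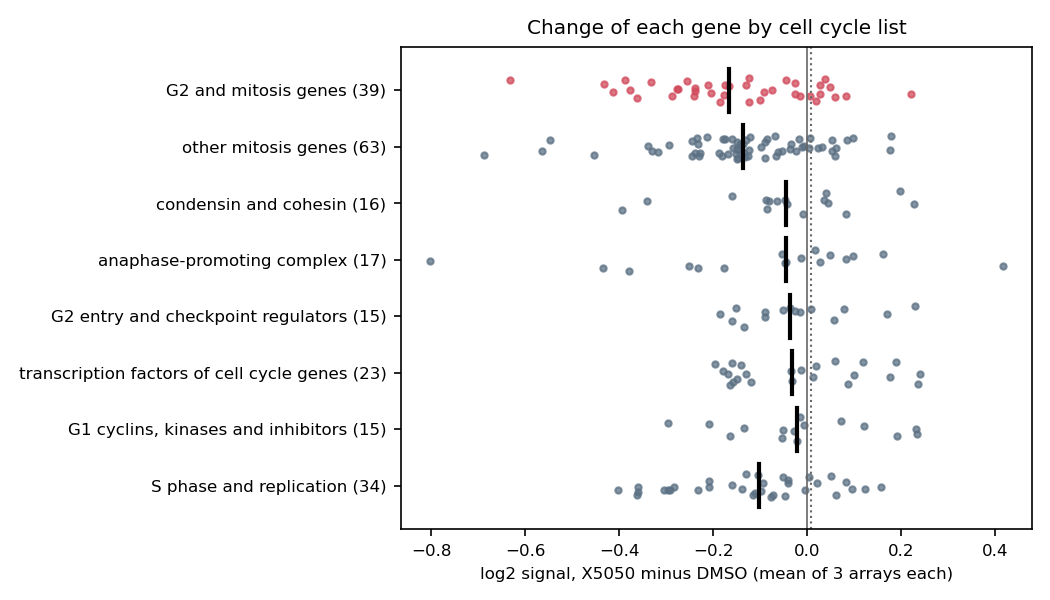
Change after X5050 (horizontal axis, difference of the group means in log2 units) for each gene of the cell cycle lists (rows, number measured in parentheses), with a bar for the list median and a dotted line for the median of all probe sets, 0.0092. The medians run from -0.17 for the G2 and mitosis genes to -0.022 for the G1 genes, and the lists overlap widely. Without DMSO replicate 2 (not drawn) these medians were -0.040 and -0.067.

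The arrays had medians of 5.68 to 5.75 and pairwise Pearson correlations of 0.984 to 0.993. Their upper quartiles ran from 7.38 (X5050 culture 2) to 7.43 (DMSO culture 2). The lower quartiles ran from 4.05 (X5050 culture 1) to 4.21 (X5050 culture 2). On every array 33 of the 39 members lay above the upper quartile of all probe sets. So did 9 of 13 neuron markers, 1 of 15 mesenchymal markers, 0 of 11 astrocyte and oligodendrocyte markers and 13 of 18 neural stem cell markers. Of those 18 markers 12 were below 0 (median -0.094), among them NES, the intermediate filament nestin, at -0.42 (adjusted p = 0.341 in limma), named after its values were seen. LIX1 fell in the paired limma fit (-1.38, adjusted p = 0.0177, and 0.172 without the block). Mesenchymal markers also stood lower: 12 of 15 were below 0, with medians of -0.34, -0.11 and -0.065 in cultures 1, 2 and 3, and their summed linear signal ran from 2132 to 7691 over the DMSO arrays and from 2011 to 5064 over the X5050 arrays. It was highest in culture 1 for both treatments, whereas the members were highest in culture 2. Of these markers LUM fell in the paired limma fit (-1.09, adjusted p = 0.0386, and 0.629 without the block). Of 13 neuron markers 8 were below 0. The summed linear signal of these 13 was 16467 to 18973 with DMSO and 17327 to 19037 with X5050. Among them SNAP25, a synaptic vesicle fusion protein, rose in the paired limma fit (0.66, adjusted p = 0.0328, and 0.366 without the block). Of 11 astrocyte and oligodendrocyte markers 1 was below 0, with sums of 490 to 699 with DMSO and 544 to 795 with X5050. Without culture 3 the calls of LIX1, LUM and SNAP25 were lost as well. The part of these cell types in the members' values was not tested.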

How the data were processed

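The deposited table gives a log2 signal for every probe set, and RMA and Partek are the tools that the submitters' processing notes name. Of versions, settings and build, none is given in the sources used here. RMA corrects background, equalises the distributions of the arrays and combines probes, which compresses changes of dim probe sets. Of 33297 probe sets, the 19460 with a single symbol in the platform annotation were tested; 1754 with several symbols and 12083 without an entry were left out.

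X5050 was compared with DMSO over the 6 arrays by limma 3.58.1 in R 4.3.3 (lmFit and eBayes, two-sided, treatment only). P-values were adjusted by Benjamini and Hochberg's method across the 19460 probe sets, at 0.05. An exact permutation test of 3 against 3 arrays cannot go below 0.1. In the paired fit the replicate number is a block. The design text names independent cultures, and residuals of arrays that share a number correlated at 0.365, 0.297 and 0.255 (other pairs -0.236 to -0.0520), so numbers were treated as pairs. SEs and 95% intervals come from the unblocked fit unless called paired, and the few arrays limit their precision.

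Per-array values are given for the 10 members with the smallest p, CCNB1, CDK1, MKI67, TOP2A, FOXM1, members above 0 and the 2 with the largest F between cultures. Each related list gives its smallest p in each direction, and WEE1, MYBL2, CDKN1A and CHEK1 are always named. CENPW was named after its values were seen. Members and lists were chosen with earlier results of these data known. The fits were run on simulated data. For the treatment fits those data held no differences between cultures, so they could not check the pairing. Figures used matplotlib 3.10.9.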

Additional observations from a re-analysis of the deposited data

How the results depend on the processing

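With the replicate block limma called 97 probe sets in place of 0, 346 without culture 1, 81 without culture 2 and 0 without culture 3, and 2 members without culture 1. Members at an unadjusted p under 0.05 numbered 14 with the block, and genes of the related lists called numbered 2. Leaving out 1 array gave 0 to 1 probe sets called and a median change of the members of -0.21 to -0.040. It gave 5 to 14 members at an unadjusted p under 0.05 in either direction, with no share of all probe sets given. The test between cultures then called 160 to 997 probe sets and 0 to 2 members, and it called 2 members without dim probe sets and 2 with trend and robust settings. With arrays centred on their medians the median change of the members was -0.18, with 32 of 39 below 0. With another quantile normalization it was -0.14, with 28 of 39 below 0, and CCNB1 stood at -0.076. Arrays centred on their medians gave -0.00017 for NUF2 and -0.012 for CENPF, and another quantile normalization gave 0.0033 for KIF14 and 4.3e-05 for CDC25B. Leaving out 1 array turned the sign of 17 members, none of which passed the test. Their lowest and highest values were -0.33 to 0.00041 for BUB1, -0.31 to 0.021 for HMMR, -0.21 to 0.0079 for ECT2, -0.23 to 0.011 for KIF23, -0.18 to 0.041 for FOXM1, -0.0045 to 0.17 for TOP2A, -0.027 to 0.088 for CCNA2, -0.14 to 0.25 for MKI67, -0.053 to 0.17 for KIF11. For the other 8 they were -0.21 to 0.16 for CDC25C, -0.047 to 0.15 for KIF18A, -0.046 to 0.079 for NUF2, -0.16 to 0.12 for KIF14, -0.13 to 0.18 for TTK, -0.19 to 0.20 for ANLN, -0.081 to 0.082 for CDC25B, -0.18 to 0.16 for CENPF. With the replicate block and 1 culture left out, the turned values were -0.021 for TOP2A, -0.015 for CCNA2, 0.096 for CDC25C, -0.050 for NUF2, 0.0087 and 0.036 for KIF14, 0.14 for TTK, -0.14 for ANLN, 0.072 and 0.029 for CDC25B, -0.035 for CENPF. The causes were not tested. The pairing changed no other call of a member. All 39 members lay above the median signal on every array. The number of arrays, 3 per group, limits the precision.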
